A study of Mus musculus with 4 samples.

Results

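The genes described here are 43 members of transforming growth factor-beta (TGF-beta) and bone morphogenetic protein (BMP) signalling: ligands, receptors, secreted antagonists, latent TGF-beta binding proteins, Smads and Id genes. They were taken by symbol from a fixed list, which was chosen with earlier results of these data known. All 43 were among the 21862 genes listed once in the expression tables. The tables came from RNA-seq of mouse neural progenitor cells (NPCs) of the N31 line, a single line that was derived in vitro from pluripotent cells and carries doxycycline-inducible reprogramming genes and a reverse tetracycline transactivator, with a blasticidin resistance cassette in Oct4. There were 4 libraries, 1 for each condition: control NPCs on a soft 0.5 kPa matrix, control NPCs on a stiff 12 kPa matrix, and shSrf NPCs on each of these matrices. The shSrf NPCs were N31 cells given 1 short hairpin RNA against Srf (shSrf#1) by a pSilencer-type retrovirus with puromycin selection, whereas control NPCs were N31 cells for which no vector is stated, so that effects of the hairpin, the virus and the selection cannot be told apart. All of the cultures were kept without EGF and bFGF on matrices over type I collagen-coated dishes. Srf, serum response factor, is the transcription factor that drives actin cytoskeleton genes when cells meet a stiff matrix, and the design asks how matrix stiffness and Srf each change expression.

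Ligands of this family reach the cell as dimers that are often held latent in the matrix or captured by secreted antagonists. A dimer joins type II receptor kinases to type I receptor kinases, which phosphorylate receptor Smads (Smad2 and Smad3 for TGF-beta and activin, Smad1 and Smad5 for BMP) that enter the nucleus with Smad4. The Id genes and the inhibitory Smads are well known direct targets of this signal and, in the neural lineage, BMP signalling and Id proteins hold progenitors back from neuronal differentiation.

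Values are FPKM, fragments per kilobase of transcript scaled to the number of mapped fragments, as the authors deposited them, so levels of different genes are compared per transcript length. With 1 library in each condition no difference can be set against a spread between replicates, and no test was made. The errors given with log2 ratios are standard errors (SE) from read counting only, from a depth estimated at 24100000 to 62300000 reads per library. Srf itself stood at FPKM 34.4 and 35.5 in control NPCs on 0.5 and 12 kPa and at 16.2 and 17.4 in shSrf NPCs, and its target Acta2 at 321 and 322 against 6.74 and 8.96. From soft to stiff matrix Acta2 thus hardly differed in control NPCs (log2 0.005) and was higher in shSrf NPCs (log2 0.41). By PCR the study reports that Srf targets such as Acta2 rose with stiffness in NPCs. Whether Srf was more active in the stiff control library used here was not tested. Of 15 neural progenitor markers 9 or 10 were above FPKM 2 in each library, but the defining markers Sox1, Hes5 and Olig2 were below 0.1 in all 4, and 12 or 13 of 13 mesenchymal markers were above 2. The summed FPKM of the neural progenitor list was 1691 to 1909 in control and 2556 to 2586 in shSrf NPCs, that of the mesenchymal list 3336 to 3557 and 3332 to 3411, that of the astrocyte list 366 to 428 and 227 to 237, that of the neuron list 60.6 to 63.3 and 120 to 125, and that of the oligodendrocyte list 28.1 to 30.4 and 41.2 to 44.0. Single genes carried several of these sums: without Vim the neural progenitor list summed to 210 to 213 in control and 176 to 190 in shSrf NPCs, without Gja1 the astrocyte list to 30.7 to 32.5 and 37.4 to 40.0, and without Col3a1 the mesenchymal list to 1753 to 1827 and 1435 to 1503, so that the first 2 turned direction. Within the neural progenitor list Sox2 and Pax6 were higher and Nes, Prom1 and Slc1a3 lower in shSrf NPCs. What part these shifts between the populations have in the results below was not tested. In such bulk samples a smaller share of cells that express a gene and less RNA per cell cannot be told apart.

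Of the 43 genes, 31 were above FPKM 2 in all 4 libraries, a share of 72.1% against 48.0% of all 21862 genes (10489 genes). Levels ran from 0, for Bmp7 and Nog in control NPCs, to 516, for Id3 in shSrf NPCs on the stiff matrix. Id3 was the most abundant, at 248 to 516 over the 4 libraries, followed by Id1 at 81.5 to 198, Bmp1 at 62.7 to 83.2, Ltbp1 at 65.0 to 87.8 and Ltbp3 at 50.1 to 90.3, and the ranges of the last 3 overlapped.

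**Figure D1:**
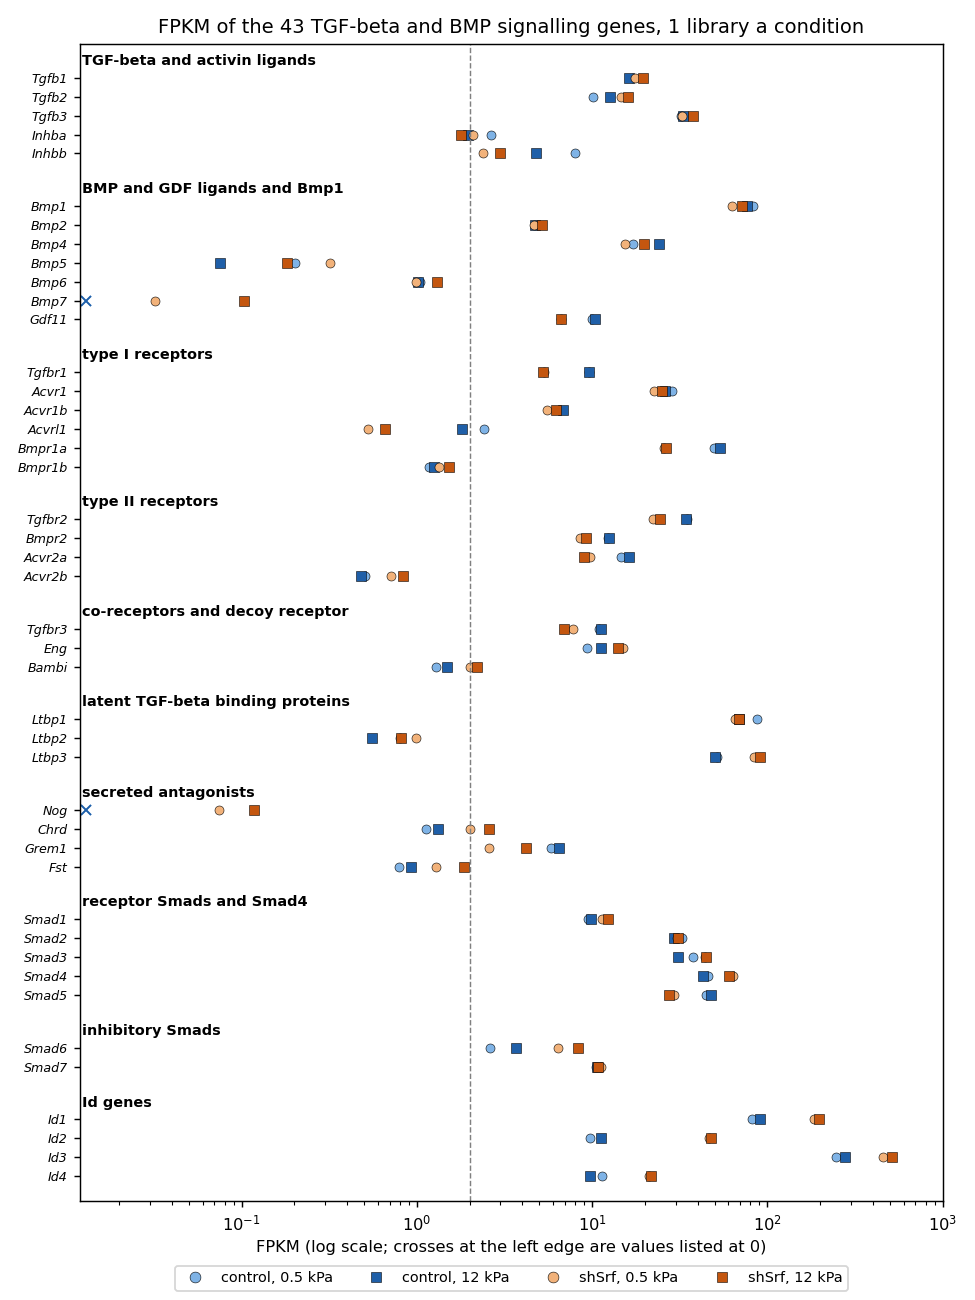
FPKM of the 43 genes on a log axis, grouped by role, with 1 point for each library (circles 0.5 kPa, squares 12 kPa, blue control, orange shSrf) and a dashed line at FPKM 2. Crosses at the left edge mark the control libraries in which Bmp7 and Nog were listed at 0, and Id3 lies at the right, at 248 to 516.

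Among TGF-beta ligands Tgfb3 was the most abundant at 32.2 to 37.4, above Tgfb1 at 16.4 to 19.5, which in turn lay just above Tgfb2 at 10.2 to 16.0, with no overlap between neighbours. Among BMP and GDF ligands Bmp4 ranged from 15.4 to 24.1, Gdf11 from 6.68 to 10.3 and Bmp2 from 4.64 to 5.16. Bmp1, counted here by name, is a procollagen C-proteinase that also cleaves chordin and not a ligand of the family. The activin subunit Inhbb ranged from 2.40 to 8.01.

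Type I receptors were led by Bmpr1a, a BMP receptor, at 25.7 to 53.4, and the BMP receptor Acvr1 at 22.6 to 28.7, whose ranges overlapped. The TGF-beta receptor Tgfbr1, at 5.23 to 9.62, and the activin receptor Acvr1b, at 5.51 to 6.80, lay lower and overlapped with each other. Among type II receptors Tgfbr2 was highest at 22.3 to 34.7, and the overlapping Acvr2a, at 9.04 to 16.2, and Bmpr2, at 8.57 to 12.4, were below it. The co-receptors Eng, or endoglin, and Tgfbr3, or betaglycan, ranged from 9.38 to 15.0 and from 6.92 to 11.3.

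Within the Smads, the common partner Smad4 ranged from 42.8 to 64.0, Smad3 from 30.8 to 44.6, Smad5 from 27.3 to 47.9 and Smad2 from 29.2 to 32.5, each overlapping with the next. Smad1 was lower, at 9.51 to 12.3, so that of these BMP-type receptor Smads Smad5 was more abundant than Smad1 in every library. The inhibitory Smads Smad7 and Smad6 ranged from 10.5 to 11.3 and from 2.62 to 8.29. Expression of both branches of the pathway, from ligand to Smad, was thus detected in each of the 4 libraries.

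There were 8 members that were at or below FPKM 2 everywhere: the ligands Bmp5 (0.0751 to 0.318) and Bmp6 (0.994 to 1.30), the receptors Bmpr1b (1.17 to 1.53) and Acvr2b (0.481 to 0.838), Ltbp2 (0.552 to 0.993), the activin-binding antagonist Fst (0.788 to 1.87), and Bmp7 and Nog. Bmp7, a BMP ligand, and Nog, or noggin, a secreted BMP antagonist, were listed at 0 in both control libraries. In shSrf NPCs on 0.5 and 12 kPa Bmp7 was at 0.0320 and 0.103, about 5 and 22.3 estimated reads, and Nog at 0.0743 and 0.118, about 5.76 and 12.7 estimated reads. These libraries were the deeper ones, and no ratio is given against values listed at 0.

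Comparing shSrf with control NPCs at each stiffness asked how these genes differ between the populations. At the end of the pathway all 4 Id genes and Smad6 were higher in shSrf NPCs on both matrices, while the receptors Bmpr1a and Tgfbr1, the receptor Smad Smad5, the antagonist Grem1 and the activin subunit Inhbb were lower. A gene was called where its FPKM ratio passed 1.5-fold the same way on both matrices and it was above FPKM 2 in all libraries. Of the 31 members above that minimum 6 were called higher (19.4%), against 6.63% of all 10489 genes, and 5 lower (16.1%), against 6.17%. Both shares lay above the background, but with a pseudocount of 1 the lower members were 2 (6.45%) against 5.2% of all genes, while the higher ones were still 6 (19.4% against 5.68%). Of the 6 higher members 4 were the Id genes, which form 1 family. The list was chosen with earlier results of these data known, so shares of members beside those of all genes, here and below, are descriptive only. The medians over the 31 members were near 0, at -0.10 on 0.5 kPa and 0.00 on 12 kPa on the log2 scale, beside 0.01 and 0.01 for all genes.

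**Figure D2:**
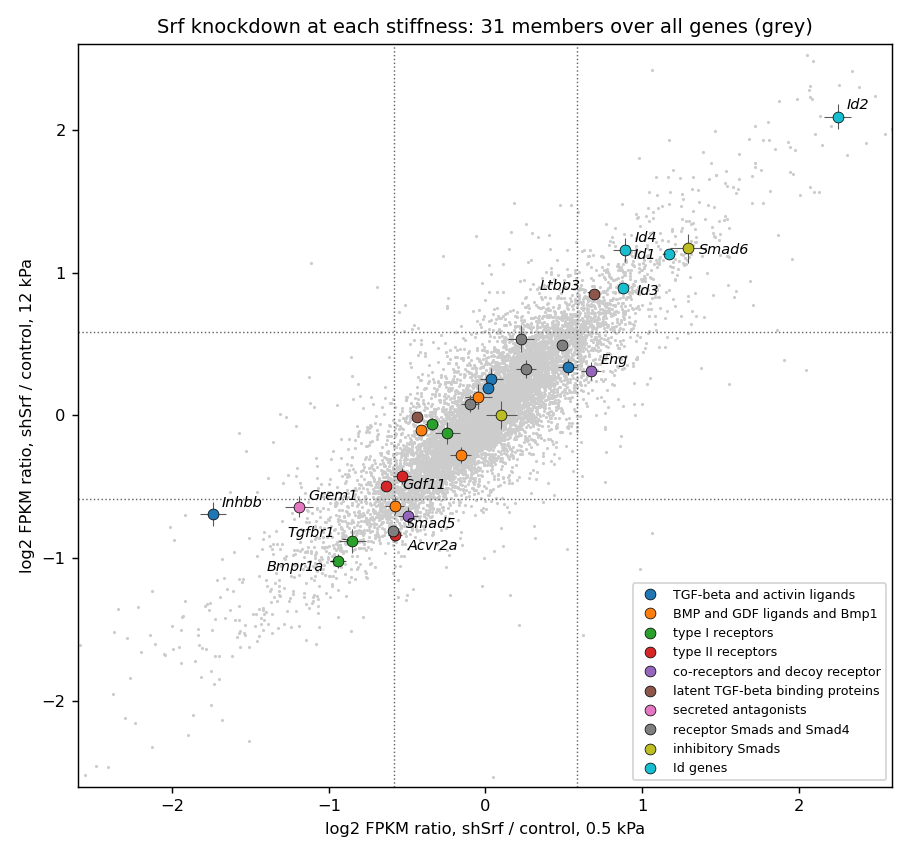
Log2 FPKM ratio of shSrf to control NPCs on 0.5 kPa (x axis) and 12 kPa (y axis) for 31 members, coloured by role, with bars of 1 counting SE, over all 10489 genes in grey; dotted lines mark 1.5-fold. The 4 Id genes, Smad6 and Ltbp3 lie in the upper right corner and Inhbb, Grem1, Bmpr1a, Tgfbr1 and Smad5 in the lower left.

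The Id genes encode helix-loop-helix proteins without a DNA-binding domain, which capture E proteins and keep them from activating differentiation genes. Id2 (chr12:25093799-25096092) stood at FPKM 9.79 and 11.2 in control NPCs on 0.5 and 12 kPa and at 46.55 and 47.8 in shSrf NPCs, log2 ratios of 2.25 ± 0.088 and 2.09 ± 0.089 (counting SE) or 4.76- and 4.26-fold. Its 4 values fell into a low control pair and a high shSrf pair. Id1 (chr2:152736251-152737410) was at 81.5 and 90.4 in control and at 184 and 198 in shSrf NPCs, 2.26- and 2.19-fold higher (log2 1.17 ± 0.037 and 1.13 ± 0.036).

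Id3 (chr4:136143822-136145392) was at 248 and 278 in control and 456 and 516 in shSrf NPCs, 1.84- and 1.86-fold higher (log2 0.88 ± 0.019 and 0.89 ± 0.019). Id4 (chr13:48261116-48266028) was at 11.4 and 9.71 in control and 21.1 and 21.7 in shSrf NPCs, 1.86- and 2.23-fold higher (log2 0.89 ± 0.076 and 1.16 ± 0.085). For every Id gene the lower shSrf value exceeded the higher control value. The median log2 ratio of the 4 Id genes was 1.03 on 0.5 kPa and 1.15 on 12 kPa, so the knockdown ratio was of like size on both matrices while the ratios of stiff to soft were much smaller.

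Smad6 (chr9:63953076-64022085), which mainly restrains BMP receptor signalling, was at 2.62 and 3.68 in control and 6.42 and 8.29 in shSrf NPCs, 2.45- and 2.25-fold higher (log2 1.29 ± 0.11 and 1.17 ± 0.10). Its counterpart Smad7, which restrains both branches, was at 10.5 and 10.7 against 11.3 and 10.7, log2 ratios of 0.10 ± 0.098 and 0.00 ± 0.099. The inhibitory Smads thus differed from each other. The control value of Smad6 was higher on 12 than on 0.5 kPa, and both shSrf values lay above both control values.

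The promoters of Id2, Id3, Id4 and Smad6 are shown as those of known BMP targets that were all higher in shSrf than in control NPCs, and that of Id1 is not shown here. Each line runs 5′ to 3′ on the gene's strand from 250 bases before the RefSeq start to 30 after it in the GRCm38.p6 build: Id2 at chr12:25096063-25096342 (minus strand), Id3 at chr4:136143572-136143851 (plus), Id4 at chr13:48260866-48261145 (plus) and Smad6 at chr9:64022030-64022309 (minus). Capitals mark matches to GGCGCC, a GC-rich motif of BMP-responsive elements, or GTCTAGAC, the palindromic Smad-binding element, both of which read alike on either strand.
Id2: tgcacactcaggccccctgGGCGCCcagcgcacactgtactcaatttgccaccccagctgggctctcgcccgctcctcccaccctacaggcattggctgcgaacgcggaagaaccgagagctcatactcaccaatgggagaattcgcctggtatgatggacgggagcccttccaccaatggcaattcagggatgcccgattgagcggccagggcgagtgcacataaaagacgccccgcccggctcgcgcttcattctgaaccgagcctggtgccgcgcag
Id3: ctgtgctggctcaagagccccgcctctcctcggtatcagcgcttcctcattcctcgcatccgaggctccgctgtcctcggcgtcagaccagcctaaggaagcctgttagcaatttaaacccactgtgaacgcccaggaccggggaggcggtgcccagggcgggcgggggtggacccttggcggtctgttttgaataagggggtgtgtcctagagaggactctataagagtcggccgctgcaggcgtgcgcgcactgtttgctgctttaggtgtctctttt
Id4: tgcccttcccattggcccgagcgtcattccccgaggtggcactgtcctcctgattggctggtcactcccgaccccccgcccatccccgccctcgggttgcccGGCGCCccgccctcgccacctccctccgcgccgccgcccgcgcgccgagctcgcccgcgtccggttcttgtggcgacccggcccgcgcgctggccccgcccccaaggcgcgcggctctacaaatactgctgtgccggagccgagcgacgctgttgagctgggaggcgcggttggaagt
Smad6: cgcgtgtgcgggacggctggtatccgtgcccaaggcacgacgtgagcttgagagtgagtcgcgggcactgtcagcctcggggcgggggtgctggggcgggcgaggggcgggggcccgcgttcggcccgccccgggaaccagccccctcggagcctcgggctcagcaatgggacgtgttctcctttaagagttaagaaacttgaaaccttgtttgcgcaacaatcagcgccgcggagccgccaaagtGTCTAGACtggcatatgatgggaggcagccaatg
Id2 had GGCGCC beginning 231 bases before its start, Id4 had it 148 bases before, Smad6 had GTCTAGAC beginning 4 bases before and running over its start, and the Id3 window had neither. Over all 32851 promoter windows of 300 bases in the RefSeq table, GGCGCC was in 11.9% and GTCTAGAC in 0.213%. The table held 36 windows of 30 members, of which 10 had GGCGCC (in Id2, Id4, Bmpr1a, Tgfbr1, Smad5, Grem1, Bmpr2, Acvr1b and Chrd) and 1 had GTCTAGAC (Smad6). GGCGCC was therefore found beside genes that were higher and genes that were lower in shSrf NPCs. The CArG box, the motif that Srf binds, was searched on both strands and was in 1.63% of all windows and in 0 of the 36. At so low a share, 36 windows are too few for this count to tell members from other genes. Only the strict form of the motif was searched, and not outside these windows, so whether Srf binds near these genes was not tested.

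**Figure D3:**
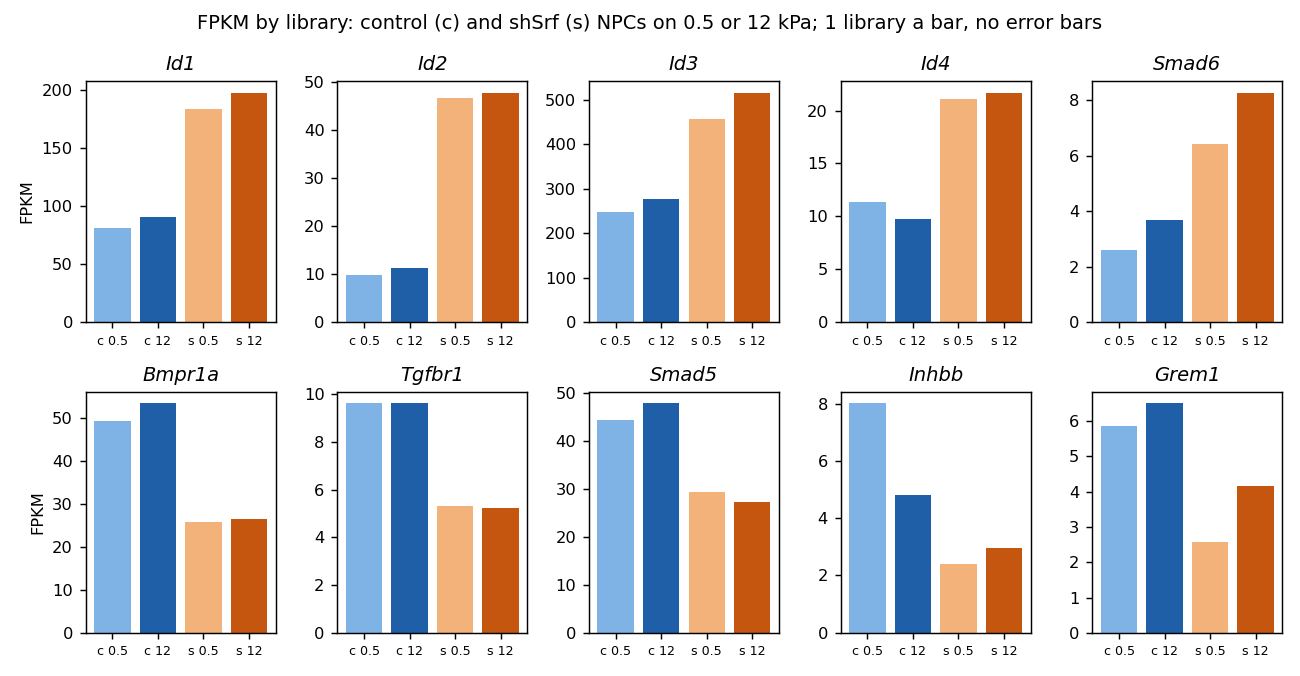
FPKM in each library for the 4 Id genes and Smad6 (top) and for 5 genes that were lower in shSrf NPCs (bottom), 1 library a bar with no error bars; c is control, s is shSrf, and 0.5 and 12 are the matrix stiffness in kPa. In every top panel both shSrf bars exceed both control bars, and in every bottom panel both are below them.

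On the receptor side Bmpr1a (chr14:34411061-34503336) was at 49.4 and 53.4 in control NPCs and 25.7 and 26.4 in shSrf NPCs, 1.92- and 2.02-fold lower (log2 -0.94 ± 0.052 and -1.02 ± 0.049). Tgfbr1 (chr4:47353222-47414926), the type I receptor for TGF-beta, was at 9.62 and 9.61 against 5.33 and 5.23, 1.80- and 1.84-fold lower (log2 -0.85 ± 0.087 and -0.88 ± 0.085). Both receptors had nearly equal values on soft and stiff matrices and differed mainly between the populations.

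The 3 type II receptors above the minimum had ratios below 0 as well, without passing the rule on both matrices. Their log2 ratios on 0.5 and 12 kPa were -0.63 and -0.50 for Tgfbr2, -0.53 and -0.42 for Bmpr2 and -0.58 and -0.84 for Acvr2a. Acvr2a missed the threshold on 0.5 kPa by less than 0.01 on the log2 scale, where 1.5-fold is 0.585, before the centring for GC content given below. The median log2 ratio was -0.60 and -0.50 over the 4 type I and -0.58 and -0.50 over the 3 type II receptors above the minimum, and Acvr1b and Acvr1 had the ratios nearest to 0 among them, at -0.24 and -0.12 and at -0.34 and -0.06. The low-level receptors Acvr2b (0.49 and 0.80) and Bmpr1b (0.19 and 0.28), both under FPKM 2, had ratios above 0.

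Acvrl1 (chr15:101128522-101145336), a type I receptor best known from endothelium, was above FPKM 2 in 1 library only. It was at 2.42 and 1.80 in control NPCs and 0.528 and 0.656 in shSrf NPCs, log2 ratios of -2.19 ± 0.26 and -1.46 ± 0.24. Its frequent partner endoglin (Eng) went the other way, from 9.38 and 11.3 to 15.0 and 14.02, with log2 ratios of 0.68 ± 0.065 and 0.31 ± 0.063, and passed 1.5-fold on 0.5 kPa alone. Of 7 endothelial markers 0 were above FPKM 2 in control and 1, Emcn, in shSrf NPCs, the summed FPKM of the list was 2.48 to 2.72 and 6.57 to 6.58 (without Emcn 1.63 to 1.92 and 1.29 to 1.66), and Cdh5 and Kdr were below 0.1 in all libraries. The co-receptor Tgfbr3 was at 10.9 and 11.3 against 7.77 and 6.92, past 1.5-fold on 12 kPa alone, and the decoy receptor Bambi (chr18:3507011-3516404), which lacks a kinase domain, was at 1.28 and 1.48 against 1.999 and 2.19 (log2 0.64 ± 0.13 and 0.57 ± 0.12), below FPKM 2 in 3 libraries.

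Among the ligands Inhbb (chr1:119415463-119422248), a subunit of activin B, had the lowest FPKM ratio of the 31 members on 0.5 kPa: it was at 8.01 and 4.80 in control and 2.40 and 2.98 in shSrf NPCs, 3.34- and 1.61-fold lower (log2 -1.74 ± 0.083 and -0.69 ± 0.085). Inhba (chr13:16004256-16031609), the activin A subunit, lay around the minimum at 2.65 and 1.97 against 2.101 and 1.79, log2 ratios of -0.33 ± 0.18 and -0.14 ± 0.20. The ligand Gdf11 was at 9.97 and 10.3 against 6.68 and 6.68, log2 ratios of -0.58 and -0.63, the first just short of 1.5-fold and the second past it. The TGF-beta and BMP ligands proper above the minimum did not pass 1.5-fold on either matrix. Their log2 ratios ran from 0.02 to 0.53 for Tgfb1, Tgfb2 and Tgfb3 and from -0.28 to 0.13 for Bmp2 and Bmp4. Under FPKM 2, Bmp5 had log2 ratios of 0.66 ± 0.37 and 1.28 ± 0.61, past 1.5-fold, and Bmp6 had -0.07 ± 0.21 and 0.36 ± 0.20.

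Of the latent TGF-beta binding proteins, which tie the latent ligand to the matrix, Ltbp3 (chr19:5740900-5758536) was at 51.7 and 50.1 in control and 83.5 and 90.3 in shSrf NPCs, 1.62- and 1.80-fold higher (log2 0.69 ± 0.020 and 0.85 ± 0.020). Ltbp1 did not pass 1.5-fold, at 87.8 and 69.2 against 65.0 and 68.5 (log2 -0.43 ± 0.018 and -0.01 ± 0.019). On both matrices Ltbp1 was the more abundant of the pair in control NPCs and Ltbp3 in shSrf NPCs.

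Of the secreted antagonists Grem1 alone was above FPKM 2 in all libraries, and it alone was lower in shSrf NPCs. Grem1 (chr2:113748675-113758648), or gremlin, was at 5.86 and 6.51 in control and 2.57 and 4.17 in shSrf NPCs, 2.28- and 1.56-fold lower (log2 -1.19 ± 0.087 and -0.64 ± 0.073). Chrd (chr16:20731425-20742384), or chordin, was at 1.13 and 1.31 against 2.02 and 2.57, above FPKM 2 in shSrf NPCs only, with log2 ratios of 0.84 ± 0.18 and 0.97 ± 0.17. Fst, under FPKM 2 in every library, was at 0.788 and 0.931 against 1.28 and 1.87. Its log2 ratios were 0.70 ± 0.27 and 1.01 ± 0.26, past 1.5-fold on both matrices. Nog, as given above, was listed at 0 in control NPCs.

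Among receptor Smads the BMP-type Smad5 (chr13:56703010-56742378) was at 44.4 and 47.9 in control and 29.5 and 27.3 in shSrf NPCs, 1.51- and 1.75-fold lower (log2 -0.59 ± 0.027 and -0.81 ± 0.026). The other BMP-type Smad, Smad1, had log2 ratios of 0.26 and 0.32, so the gap between them narrowed but did not close. Smad4 had 0.49 and 0.49, Smad3 0.23 and 0.54 and Smad2 -0.10 and 0.08, none of them past 1.5-fold.

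Knockdown ratios moved with the GC content of transcripts over all genes. The 1032 genes of lowest GC content (31.9 to 42.7%) had median log2 ratios of -0.19 on 0.5 kPa and -0.29 on 12 kPa, and the 1031 genes of highest GC content (58.4 to 76.5%) had 0.22 and 0.35. Ltbp3 and Smad6, with transcripts of 61.5% and 61.8% GC, lie at the high end, and Tgfbr1, Smad5, Grem1 and Bmpr1a, at 43.4%, 45.0%, 44.7% and 46.2%, towards the low end. After centring within 50 bins of GC content Ltbp3 had log2 ratios of 0.49 and 0.47, Grem1 -1.05 and -0.45 and Smad5 -0.45 and -0.62, and these 3 no longer passed 1.5-fold on both matrices. The Id genes remained past it, at 2.40 and 2.32 for Id2 (42.4% GC), 1.08 and 0.98 for Id1, 0.93 and 1.23 for Id4 and 0.78 and 0.70 for Id3, as did Smad6 at 0.95 and 0.69, Bmpr1a at -0.85 and -0.88, Tgfbr1 at -0.71 and -0.68 and Inhbb at -1.95 and -1.07. Among type II receptors, Acvr2a (39.9% GC) then had -0.41 and -0.53, past 1.5-fold on neither matrix. Bmpr2 (45.3% GC) had -0.44 and -0.27 and Tgfbr2 (49.7% GC) -0.64 and -0.49.

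**Figure D4:**
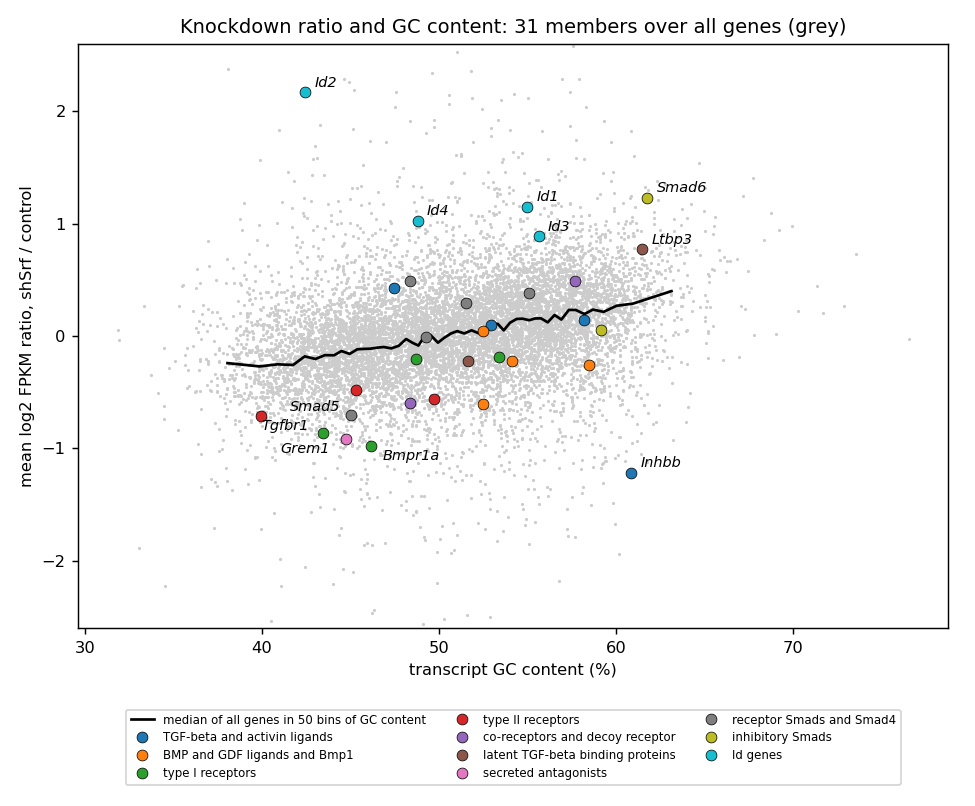
Mean of the 2 log2 FPKM ratios of shSrf to control against transcript GC content for 31 members, coloured by role, over all genes with a matched transcript in grey; the line is the median of all genes in 50 bins. Id2 lies far above the line at 42.4% GC, while Ltbp3 and Smad6 lie where the line itself is raised.

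Comparing 12 with 0.5 kPa asked what matrix stiffness does to these genes in each population. Log2 ratios between the matrices ran from -0.74 to 0.49 over the 31 members in control NPCs and from -0.17 to 0.70 in shSrf NPCs, beside -1.74 to 2.25 between the populations on 0.5 kPa. In control NPCs, where a gene was called past 1.1-fold between 12 and 0.5 kPa, 9 of the 31 members were higher on the stiff matrix (29.0%), against 17.9% of all genes, and 6 were lower (19.4%), against 16.9%. Those higher were the ligands Tgfb2 and Bmp4, the receptors Acvr2a and Eng, the antagonist Grem1, and Smad6, Id1, Id2 and Id3. Those lower were Inhbb, Acvr1, Ltbp1, Smad2, Smad3 and Id4. After centring within GC bins Acvr2a and Grem1 were no longer called. The median log2 ratio of the members was 0.03, and of all genes 0.00.

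Bmp4 (chr14:46383525-46390669) went from 17.2 on 0.5 kPa to 24.1 on 12 kPa in control NPCs, 1.40-fold (log2 0.49 ± 0.068), and Smad6 from 2.62 to 3.68, 1.41-fold (log2 0.49 ± 0.14). The Id genes moved little: Id1 had a log2 ratio of 0.15 ± 0.047, Id2 0.20 ± 0.12 and Id3 0.17 ± 0.024, whereas Id4 had -0.23 ± 0.10. Ltbp1 went from 87.8 to 69.2 (log2 -0.34 ± 0.021), the TGF-beta-type receptor Smad Smad3 from 37.5 to 30.8 (log2 -0.29 ± 0.11) and Tgfb2 from 10.2 to 12.6 (log2 0.31 ± 0.070). Inhba, under FPKM 2 on 12 kPa, had a log2 ratio of -0.43 ± 0.21.

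In shSrf NPCs 11 of the 31 members were higher on the stiff matrix (35.5%), against 17.6% of all genes, and 1 was lower (3.23%), against 13.0%. The members higher were the ligands Tgfb1, Tgfb3, Inhbb, Bmp2 and Bmp4, the protease Bmp1, the type I receptors Acvr1 and Acvr1b, Grem1, Smad6 and Id3, and the lower one was the co-receptor Tgfbr3, at 7.77 and 6.92 (log2 -0.17 ± 0.058). Most of these were small, with Tgfb1, Bmp1, Bmp2, Acvr1, Acvr1b, Tgfb3 and Id3 between 0.15 and 0.20 on the log2 scale. After centring within GC bins Tgfb1, Bmp1, Bmp2 and Id3 were no longer called and Tgfb2 and Bmpr2 were called higher, Eng and Smad7 lower. The median log2 ratio of the members was 0.11, and of all genes 0.01.

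Bmp4, Grem1, Smad6 and Id3 were higher on the stiff matrix in both populations, 4 of 31 members beside 5.10% of all genes, and 0 members were lower in both, beside 3.24%. In shSrf NPCs Bmp4 went from 15.4 to 19.9 (log2 0.37 ± 0.053), Smad6 from 6.42 to 8.29 (log2 0.37 ± 0.065), and Id3 from 456 to 516 (log2 0.18 ± 0.012). After centring within GC bins this Id3 ratio in shSrf NPCs was 0.11, no longer past 1.1-fold. Grem1 went from 2.57 to 4.17, 1.62-fold (log2 0.70 ± 0.081), while in control NPCs it went from 5.86 to 6.51 (log2 0.15 ± 0.080), just past 1.1-fold and no longer so after centring within GC bins. The difference between these Grem1 ratios, shSrf minus control, was 0.55 ± 0.11, and that of Bmp4 was -0.12 ± 0.087.

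Inhbb and Acvr1 passed 1.1-fold in opposite directions in the populations, a pattern of 6.01% of all genes. Inhbb went from 8.01 to 4.80 in control NPCs (log2 -0.74 ± 0.081) and went from 2.40 to 2.98 in shSrf NPCs (log2 0.31 ± 0.087). Acvr1 (chr2:58446438-58566828) went from 28.7 to 26.0 in control NPCs (log2 -0.14 ± 0.046) and from 22.6 to 25.0 in shSrf NPCs (log2 0.15 ± 0.035), so that the populations lay closer together on the stiff matrix for both genes. Ltbp1 showed a gap of like kind, with a difference of 0.42 ± 0.026 between its stiffness ratios, although its shSrf ratio of 0.08 ± 0.016 was not past 1.1-fold. The stiffness and knockdown ratios of a gene share libraries, so their agreement or opposition is not independent.

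**Figure D5:**
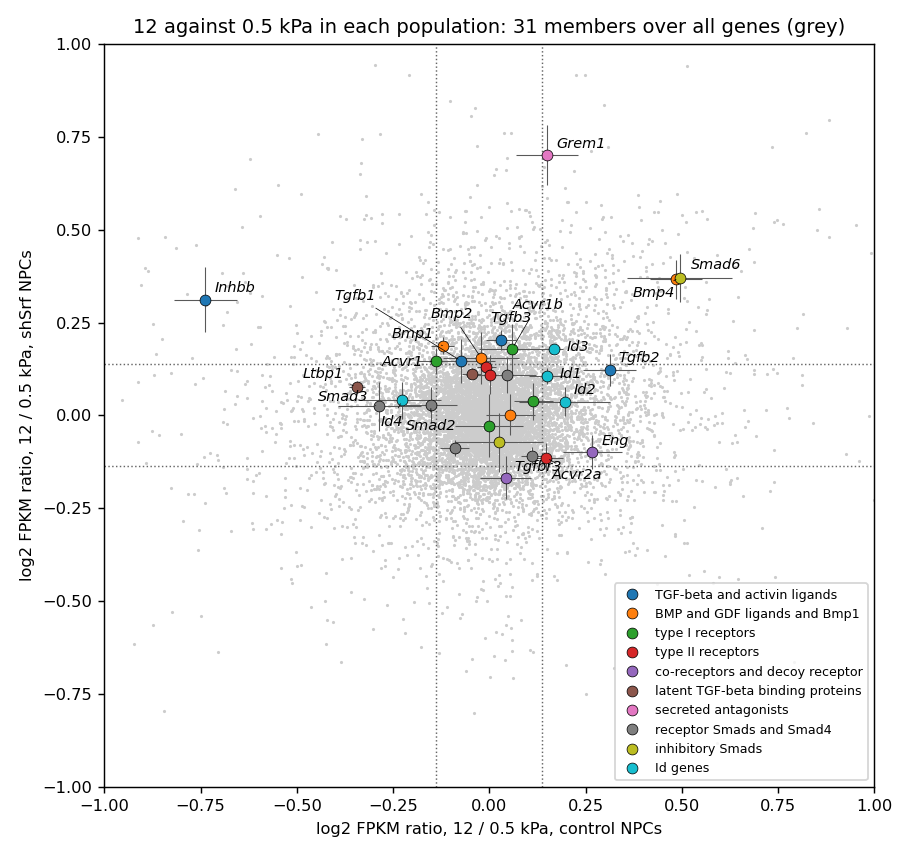
Log2 FPKM ratio of 12 to 0.5 kPa in control NPCs (x axis) and in shSrf NPCs (y axis) for 31 members, coloured by role, with bars of 1 counting SE, over all genes in grey; dotted lines mark 1.1-fold. Bmp4 and Smad6 lie to the upper right, Grem1 high on the y axis only, and Inhbb alone at the left above the upper line, at -0.74 and 0.31.

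A wider list of 112 other genes of the pathway was read the same way, 71 of them above FPKM 2 in all libraries. On knockdown 16 were lower on both matrices (22.5%) and 7 higher (9.86%), beside the 6.17% and 6.63% of all genes. The 13 genes of matrix storage and activation held 6 of the lower ones, namely the fibrillin Fbn1, Thbs1 and the integrin subunits Itgav and Itgb1, which take part in activating latent TGF-beta, the membrane protease Mmp14 and the secreted protease Htra1, and 0 higher ones. Of 9 BMP response genes Atoh8, Dlx5 and Gata2 were higher and Dlx2, Tbx2 and Zfp423 lower, so the direction of the Id genes and Smad6 was not shared by BMP response genes at large. Of 16 TGF-beta response genes Timp3, Postn and Ldlrad4 were lower and Lox higher. After centring within GC bins 17 of the 71 were lower and 6 higher, beside 5.94% and 5.05% of all genes: Atoh8, Itgav, Skil and Zfyve16 were no longer called, and Col1a2, Crebbp, Furin and Ltbp4 were called lower.

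Among the called genes of the wider list, and so above FPKM 2 in all libraries, the lowest mean knockdown ratios were those of Postn, Htra1, Timp3, Wwp1 and Thbs1. Postn, a matricellular protein induced by TGF-beta, was at 188 and 259 in control and 30.2 and 36.8 in shSrf NPCs (log2 -2.64 ± 0.026 and -2.82 ± 0.021). Thbs1, thrombospondin, which releases active TGF-beta from its latent form, was at 43.8 and 61.4 against 21.8 and 30.6 (log2 -1.005 ± 0.026 and -1.01 ± 0.021). Htra1 had log2 ratios of -1.62 and -1.23, the metalloprotease inhibitor Timp3 -1.29 and -0.996 and the ubiquitin ligase Wwp1 -0.87 and -1.17.

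The highest among the same called genes were those of Lox, Dlx5, Dcn, Lrrc32 and Atoh8. Lox, lysyl oxidase, which crosslinks collagen, was at 13.5 and 19.6 in control and 75.6 and 92.6 in shSrf NPCs (log2 2.49 ± 0.046 and 2.24 ± 0.041). Dlx5, a homeobox gene induced by BMP, was at 2.30 and 2.95 against 7.88 and 8.29 (log2 1.77 ± 0.17 and 1.49 ± 0.16). The proteoglycan Dcn, which binds TGF-beta, had log2 ratios of 1.54 and 1.60, Lrrc32, which holds latent TGF-beta at the cell surface, 1.49 and 1.36, and the BMP target Atoh8 1.29 and 0.80. Genes under the minimum in some library can have larger ratios, as Sostdc1 (-5.21 and -4.06), Tll1 (-2.70 and -2.70), Itgb3 (-2.11 and -2.11) and Pmepa1 (2.19 and 3.33) had, 4 genes chosen after their values were seen. Dcn and Postn are also on the mesenchymal marker list, and they went in opposite directions.

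Between stiff and soft matrices 23 of the 71 genes were higher (32.4%) and 15 lower (21.1%) in control NPCs, against 17.9% and 16.9% of all genes. In shSrf NPCs 20 were higher (28.2%) and 4 lower (5.63%), against 17.6% and 13.0%. Among the 71 the highest ratios in control NPCs were those of the transcription factor Gata3, at 6.04 and 15.4 (log2 1.35 ± 0.097), Atoh8 (0.56 ± 0.088) and Lox (0.54 ± 0.059), and the lowest those of Lefty1, a secreted inhibitor of Nodal (-0.68 ± 0.18), the Cdk inhibitor Cdkn1a (-0.63 ± 0.15) and Tbx2 (-0.39 ± 0.039). In shSrf NPCs Nbl1, a BMP antagonist (0.53 ± 0.053), Thbs1 (0.49 ± 0.024) and the BMP co-receptor Rgma (0.40 ± 0.025) were highest, and the corepressor Tgif1 (-0.28 ± 0.032), Tbx2 (-0.17 ± 0.038) and Timp1 (-0.15 ± 0.030) lowest. Thbs1 was also higher on the stiff matrix in control NPCs, by a log2 ratio of 0.49 ± 0.023.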

How the data were processed

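RNA-seq of the 4 libraries was made from total RNA with a stranded mRNA kit and read single-end. Per the labels and the study's methods, the authors trimmed reads with cutadapt 1.9.1, mapped them to mm10 with TopHat2 2.1.0 and Bowtie2 2.2.8 under GENCODE M14, kept reads of high mapping quality and computed gene levels with Cufflinks 2.2.1. The deposited values are FPKM, which the methods call RPKM, and are scaled by transcript length and library size. The library total therefore cannot be read from them directly. Each library table had 21997 lines, of which 135 shared 63 repeated symbols and were left out.

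From these values log2 ratios were computed without a pseudocount in Python 3.11.15 with numpy 2.4.6 and pandas 2.3.3, and figures were drawn with matplotlib 3.10.9. As in the study's methods, genes above 2 in all libraries were compared and stiffness calls used 1.1-fold. Knockdown calls used 1.5-fold the same way on both matrices. Each condition had 1 library, so there is no test. Depth was estimated from the steps between low FPKM values: it came to 29100000, 24100000, 45000000 and 62300000 reads for control on 0.5 and 12 kPa and shSrf on 0.5 and 12 kPa, on the basis of 241 genes with 1 transcript. Only 42.4% of 1101 low genes gave whole reads within 0.02 reads, so whole counts were not recovered and the depth is approximate. For a transcript of 2000 bases, 3 reads correspond to FPKM 0.0573, 0.0691, 0.0370 and 0.0268. Counting SEs follow from these depths and the median length of the gene's GENCODE M1 transcripts, less 200 bases, matched for 98.3% of genes and for all 43 members, and cover counting only. Gene positions and promoters are from RefSeq GRCm38.p6, which shares its coordinates with mm10.

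The 43 members, the wider pathway list of 116 symbols (112 used, the rest being listed under another symbol of the list or more than once) and the marker lists were chosen with earlier results of these data known. Values are given in full for members called in the knockdown comparison, called the same way or in opposite ways in both stiffness comparisons, or above 2 in some libraries only. From the pathway list the 5 highest and lowest knockdown ratios among called genes and the 3 highest and lowest of each stiffness ratio are named. Id2, Id3, Id4 and Smad6 promoters, and other members named with ratios, were chosen after their values were seen. The code that estimates depth and makes calls was tested on simulated data with known answers, which says nothing of replicate error in the calls. Alternatives were minimums of 1 and 5, no minimum with a pseudocount of 1, a pseudocount of 1, centring on the median of all genes, 75th percentile scaling, centring within 50 bins of GC content, and other thresholds.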

Additional observations from a re-analysis of the deposited data

Results flagged for a closer look

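Inhbb and Acvr1 are listed because their FPKM went past 1.1-fold in opposite directions from soft to stiff matrix in the control and shSrf NPCs. The log2 ratio of 12 to 0.5 kPa in shSrf NPCs minus that in control NPCs was 1.05 ± 0.12 (counting SE) for Inhbb and 0.29 ± 0.058 for Acvr1. Such a pattern was seen in 2 of 31 members and in 6.01% of all genes, a like share. Neither difference was tested, since 1 library stood for each condition. For Acvr1 the control ratio was just past 1.1-fold and was not past it with a pseudocount of 1.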

How the results depend on the processing

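No paired analysis was possible because 1 library stood for each condition, and for the same reason no library could be left out. Of 82 values that answer a comparison 57 stayed within 1.5 times the reported count or within their error under the alternatives, and so did 809 of 852 ratios of single members. None changed direction past a threshold. Other thresholds moved the counts most: at 1.2- and 1.5-fold 3 and 1 members were lower and 4 and 0 higher on 12 kPa in control NPCs, and 0 and 0 lower and 4 and 1 higher in shSrf NPCs, where 6.72% and 0.963%, 7.27% and 0.858%, 3.14% and 0.324%, and 5.99% and 0.458% of all genes passed. In the knockdown comparison 11 were lower and 11 higher at 1.1-fold (28.8% and 30.3% of all genes) and 0 and 3 at 2-fold (1.71% and 1.74%). Members lower on the stiff matrix in shSrf NPCs numbered 2 of 35 with a minimum of 1 (5.71% against 13.6% of all genes). They numbered 4 of 43 with no minimum and a pseudocount of 1 (9.3% against 8.23%). With centring within GC bins they numbered 3 of 31 (9.68% against 12.5%). In these last 2 settings the shares lay closer together than the reported 3.23% and 13.0%. With a minimum of 5, 7 of 27 members were higher (25.9% against 15.5%). Members lower on knockdown numbered 3 of 27 with a minimum of 5 (11.1% against 5.13% of all genes), where Inhbb and Grem1 fall out. With that minimum Smad6 falls out of the higher ones, which numbered 5 (18.5% against 5.41%). The lower ones numbered 3 of 43 with no minimum and a pseudocount of 1 (6.98% against 3.29%). With only a pseudocount of 1 they numbered 2 of 31 (6.45% against 5.2%). There Inhbb, Grem1 and Smad5 fall out, and the share was close to that of all genes. Centring on the median of all genes added Gdf11 and Acvr2a, and centring within GC bins added Gdf11. The median log2 ratio of 12 to 0.5 kPa in shSrf NPCs was 0.0764 with a minimum of 5 and 0.0705 within GC bins. The median knockdown ratio was -0.0468 on 0.5 kPa and 0.0827 on 12 kPa with a minimum of 1, and 0.0356 and 0.1414 without a minimum at a pseudocount of 1, so its sign on 0.5 kPa turned where both were changed together, while a pseudocount of 1 alone gave -0.0943. The cause of these shifts was not tested beyond the change of members that a minimum makes by construction. Genes near FPKM 2, such as Smad6 at an estimated 206 reads in control NPCs on 0.5 kPa, are the least precisely counted of those called, and spread between cultures is unknown for all.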
